A study of Rattus norvegicus with 9 samples.

Results

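Small RNAs of the striatum were compared between rats given manganese chloride and rats given corn oil. The 6 libraries were chosen by their titles, 3 labelled as Mn treated and 3 as control, out of 9 libraries in the series. The remaining 3 came from rats given an organic manganese compound (MMT) at 4 mg/kg. They were not a side of the comparison, but entered the filter on low counts, the scaling, the mean abundance and the estimate of spread. MnCl2 rats received the tetrahydrate at 200 mg/kg in physiological saline at 10 ml/kg, and control rats received corn oil at 1 ml/kg. Dosing was by stomach tube in the MnCl2 group, once a day on 6 days a week for 8 weeks in both groups. The rats were 8 weeks old at the start, and the 18 of them (9 males and 9 females) made 3 groups of 3 per sex. Genotype was not altered by any stated allele, and strain is not named in the labels. The labels name neither the sex nor the number of rats behind any 1 library. The p-values therefore cover the spread among these libraries alone, and that spread may be technical. Compound and vehicle differed together, so their effects cannot be told apart.

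The striatum receives the cortical input to the basal ganglia, where manganese in excess is known to accumulate and to cause a movement disorder. A miRNA is a short RNA that guides Argonaute to messenger RNAs, chiefly through its seed, bases 2 to 8 from its 5′ end. Many miRNAs are restricted to 1 cell type, so that blood, vessel, muscle and choroid plexus RNA can be followed in a brain sample. Fragments cut from transfer RNAs (tRNAs) are a second large class of brain small RNA and are known to accumulate in stressed cells. piRNAs are a germline class, and entries under that name in brain libraries often match tRNA sequence.

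Each library lists counts for the same 1759 entries, 764 miRNAs, 410 tRNA genes and 585 piRNAs. Total counts ran from 583045 to 2012769 in control and from 753383 to 989556 in MnCl2 libraries (exact two-sided permutation p = 0.7; 3 against 3 allows no p below 0.1). Control 1 had the highest total and the fewest entries with a count, 1305, against 1375 to 1440 in the other 5 libraries. At an equal depth of 583045 counts it would be expected to show 1166 entries, against 1326 to 1395 in the other 5. MMT 3 and MMT 1, next in total count at 1543987 and 1227930, would show 1247 and 1299, between control 1 and the rest. Control 1 was therefore the extreme of a fall in expected entries with the total count. Of the total, miRNAs took 59.7% ± 3.49 in control and 62.1% ± 3.36 in MnCl2 libraries, tRNAs 38.6% ± 3.46 and 36.4% ± 3.19, and piRNAs 1.68% ± 0.119 and 1.53% ± 0.17 (SD, n = 3; exact permutation p = 0.5, 0.5 and 0.3, each 0.5 after adjustment over the 3 classes).

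**Figure D1:**
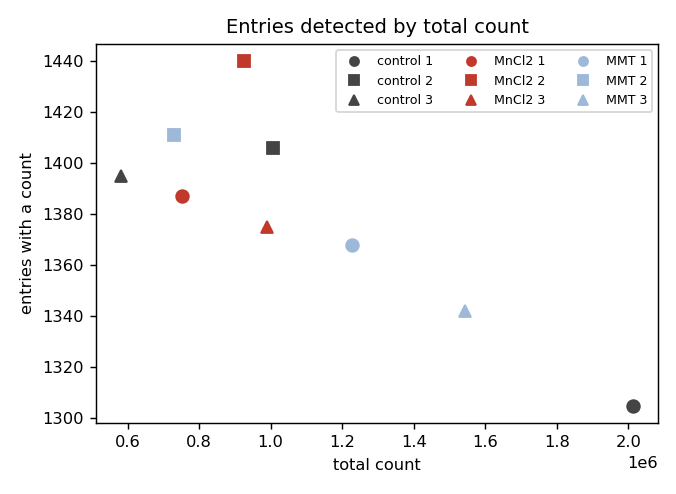
Number of the 1759 entries with at least 1 count (vertical axis) against the total count (horizontal axis), 1 point per library, for 3 control, 3 MnCl2 and 3 MMT libraries. Control 1, at 2012769 counts, has the fewest entries, 1305.

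The miRNAs on which the comparison turns are printed as the deposited files list them, 5′ to 3′ with T for U and the seed in capitals. They are markers of blood, vessel, muscle and epithelial cells, and some of the entries with low p-values. The mature miRNAs of RefSeq (GRCr8 tables) matched 687 of the 764 entries by name, 686 of them with the identical sequence.
miR-144-3p: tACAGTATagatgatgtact
miR-223-3p: tGTCAGTTtgtcaaatacccc
miR-143-3p: tGAGATGAagcactgtagctca
miR-1-3p: tGGAATGTaaagaagtgtgtat
miR-1b: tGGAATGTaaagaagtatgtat
miR-206-3p: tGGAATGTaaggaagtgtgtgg
miR-200a-3p: tAACACTGtctggtaacgatgt
miR-141-3p: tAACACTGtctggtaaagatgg
miR-219a-5p: tGATTGTCcaaacgcaattct
miR-106b-5p: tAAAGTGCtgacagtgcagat
miR-17-5p: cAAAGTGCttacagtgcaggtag
miR-320-5p: gCCTTCTCttcccggttcttcc
miR-6331: cTTTGGTGgcttagttctttgtgc

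For tRNAs and piRNAs, the capitals mark the anticodon of the tRNA and, in a piRNA entry, the bases that it shares with a tRNA entry. The tRNA entries end in the CCA that is added after transcription. Shown are the tRNA gene of lowest p-value, 1 gene of the isotype (all genes with 1 anticodon) with the most gene copies at low p, both mitochondrial tRNA genes that are listed, and 3 piRNA entries described at the end.
tRNA-Arg-ACG, chromosome 15: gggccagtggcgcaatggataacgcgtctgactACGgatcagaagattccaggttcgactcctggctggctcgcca
tRNA-Gln-CTG, chromosome 17: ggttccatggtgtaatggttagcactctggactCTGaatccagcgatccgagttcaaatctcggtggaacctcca
tRNA-mt-Leu-TAA: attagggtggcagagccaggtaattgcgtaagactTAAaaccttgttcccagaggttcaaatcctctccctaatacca
tRNA-mt-Gln-TTG: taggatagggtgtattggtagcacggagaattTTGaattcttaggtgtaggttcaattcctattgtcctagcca
pir-64746: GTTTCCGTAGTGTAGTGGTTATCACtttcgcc
pir-64142: GCATGGGTGGTTCAGTGGTAGAATTCTCGC
pir-178901: ttcctgcagattttcaagttttgttgaata

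No entry passed the test. Levels are CPM (counts divided by the library total, on the usual scale) scaled by TMM, edgeR's factor for library composition, and every fold change is log2 of MnCl2 over control from edgeR's quasi-likelihood test. After Benjamini-Hochberg adjustment at 0.05, 0 of 1113 tested entries were called (0.0%), and the lowest edgeR adjusted p was 0.8435. Before adjustment, 16 entries were higher (1.44%) and 35 lower (3.14%) in MnCl2 at an edgeR p under 0.05. DESeq2 also called 0 entries, and at that unadjusted level found 16 higher and 53 lower. So each difference that follows is a measured value that did not pass, and the words higher and lower refer to the fitted values only.

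The classes leaned opposite ways. Levels are relative, and miRNAs and tRNAs took nearly all counts, so these leans are not separate results. At that unadjusted level, 14 of 615 miRNAs were higher (2.28%) and 2 lower (0.325%), of 410 tRNA genes 1 was higher (0.244%) and 23 lower (5.61%), and of 88 piRNAs 1 was higher (1.14%) and 10 lower (11.4%). All 3 MnCl2 libraries lay above all 3 control libraries for 53 entries (4.76%) and below them for 55 (4.94%). By class, miRNAs gave 48 above (7.8%) and 5 below (0.813%), tRNA genes 3 above (0.732%) and 38 below (9.27%), and piRNAs 2 above (2.27%) and 12 below (13.6%). The median log2 fold change was 0.06 over all tested entries, 0.23 over miRNAs (476 of 615 positive), -0.08 over tRNA genes (138 of 410 positive; -0.19 with shared sequences summed, -0.16 without the filter on low counts and -0.17 without control 3) and -0.23 over piRNAs (24 of 88 positive). With shared sequences summed, a tRNA that contains a piRNA entry was counted under the piRNA's name, which left 216 under tRNA names. The miRNA direction rests on the scaling. Scaled on miRNA counts alone the miRNA median was -0.05, 2 miRNAs were higher and 9 lower at the unadjusted level, and relative to the miRNA total 22 lay above and 7 below. A miRNA value is therefore read against the miRNA median of 0.23, and a fold change smaller than about that size has no settled sign. Likewise, a count of positive members is read against 476 of 615, or 185 of 215 among miRNAs at 20 CPM or less. Fold changes larger than 0.23 were not all settled in sign either. That of miR-152-3p, 0.55, was -0.01 without MnCl2 1.

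**Figure D2:**
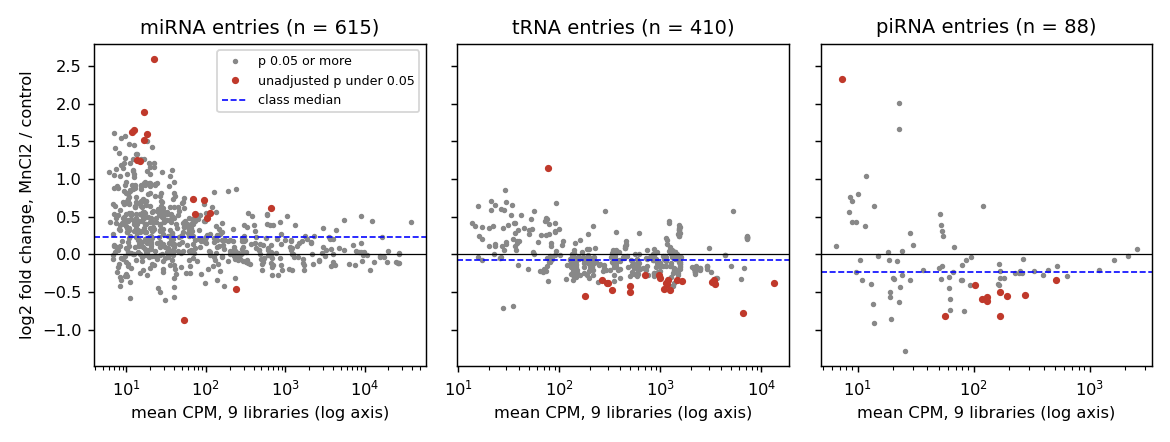
Log2 fold change of MnCl2 over control (vertical axis) against the mean CPM of the 9 libraries (horizontal log axis) for 615 miRNA, 410 tRNA and 88 piRNA entries, with entries at an unadjusted edgeR p under 0.05 in red and the class median dashed. The miRNA median is 0.23 and the tRNA and piRNA medians are -0.08 and -0.23.

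Among the miRNAs of blood cells, values were high in MnCl2 1 above all. In a tissue sample, more cells of a type and more RNA per cell cannot be told apart. The erythroid miR-144-3p, expressed in maturing red cells, was at 5.01, 13.7 and 12.2 CPM in control libraries 1 to 3 and at 48.4, 19.6 and 24.1 in MnCl2 libraries 1 to 3. All 3 MnCl2 values lay above control, with a log2 fold change of 1.60 (SE 0.54, edgeR adjusted p = 0.8435), and the value without MnCl2 1 was 1.12. Its counts were 9, 14 and 8 in control and 35, 20 and 23 in MnCl2, so counting error is wide. Its other arm, miR-144-5p (22.3, 24.5 and 33.5 against 58.1, 17.6 and 32.5 CPM), and the red-cell miR-451-5p (39.5, 33.3 and 62.4 against 78.8, 29.3 and 39.9 CPM) overlapped between the groups. In each, MnCl2 1 was the highest of the 6 libraries and MnCl2 2 the lowest. The myeloid miR-223-3p was at 64.0, 84.1 and 77.6 CPM in control and 187, 91 and 94.5 in MnCl2 (log2 fold change 0.72, SE 0.29, edgeR adjusted p = 0.8435; 0.30 without MnCl2 1). Its groups did not overlap, while those of the white-cell miR-142-3p did (459, 598 and 344 against 975, 470.4 and 597 CPM).
The red-cell list had 4 of 4 tested members positive with a median of 0.49 (0.19 without MnCl2 1 and 0.18 without control 1), and the list of white-cell and inflammation miRNAs 10 of 11 with a median of 0.54 (0.30 without MnCl2 1). With miRNAs scaled alone these medians were 0.20 and 0.24. Of the latter list, miR-21-5p, which is induced in many injured tissues, was at 2032, 1464 and 1126 CPM against 2042, 1448 and 2001 in MnCl2, and miR-146a-5p, a brake on inflammatory signalling, at 873, 556 and 627 against 739.6, 613 and 544. Both overlapped, at log2 fold changes of 0.25 and -0.12, or 0.50 and 0.10 without control 1. The scarce passenger strand miR-146b-3p stood at 5.01, 7.83 and 15.2 CPM in control and 24.9, 20.5 and 17.9 in MnCl2 (1.24, SE 0.52), while its abundant partner miR-146b-5p was at 0.03 (0.23 without control 1). Counts of miR-146b-3p were only 9, 8 and 10 in control and 18, 21 and 17 in MnCl2.

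Vessel miRNAs were high in the same library. miR-143-3p, of vascular smooth muscle, was at 9215, 7364 and 6624 CPM in control and 17934, 7239 and 7930 in MnCl2, and its cluster partner miR-145-5p at 703, 465 and 405 against 1328, 455 and 491. In both, MnCl2 1 was the highest and the other two MnCl2 libraries lay within the control range. The log2 fold changes of 0.51 (SE 0.31) and 0.52 (SE 0.38) became -0.03 and -0.16 without MnCl2 1, and that of miR-145-5p 0.80 without control 1. The endothelial miR-126a-3p differed less, at 8353, 6088 and 5922 CPM against 8637, 6362 and 7147. All 7 vascular entries were positive with a median of 0.51, and that median ran from -0.03 without MnCl2 1 to 0.74 without MnCl2 2 and was 0.20 with miRNAs scaled alone (4 positive).
The choroid plexus miR-204-5p, a marker of the tissue that lines the ventricles, also peaked in MnCl2 1. It was at 348, 1031 and 709 CPM in control and 1146, 224 and 367 in MnCl2, with MnCl2 1 and control 2 highest, and the same 2 libraries were highest for the ciliated-cell miR-34c-5p, at 91.3, 316 and 251 against 393, 116 and 181. Of 10 tested choroid and ependymal entries 8 were positive, with a median of 0.42. That median was smaller without either of 2 libraries, 0.07 without MnCl2 1 and 0.09 without control 1, and was 0.12 with miRNAs scaled alone (7 positive). The part of blood, vessel and ventricular tissue in the other values of MnCl2 1 was not tested.

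Muscle miRNAs were high in another library, MnCl2 2. miR-1-3p, a miRNA of heart and skeletal muscle, was at 5.56, 9.78 and 9.13 CPM in control and 15.2, 61.6 and 11.6 in MnCl2. The groups did not overlap, yet the log2 fold change of 1.89 (SE 0.66, edgeR adjusted p = 0.8435) was 0.73 without MnCl2 2. Its counts were 6 to 10 in control and 11, 63 and 11 in MnCl2, so counting error is wide.
miR-1b, which differs from miR-1-3p by G17A (position 17 from the 5′ end), was at 272, 87.1 and 105 CPM in control and 202, 498 and 141 in MnCl2, and overlapped. Both share an antisense entry, miR-3571, and counts of a pair that differs at 1 base are uncertain. miR-206-3p of skeletal muscle, with the same seed, was at 58.4, 78.3 and 109.5 against 70.5, 111 and 97.6 CPM. miR-133a-3p, made from the same transcripts as miR-1, was at 12.8, 4.89 and 6.09 CPM against 12.4, 38.1 and 11.6.
So miR-1-3p, miR-1b and miR-133a-3p each had MnCl2 2 as the highest library, and miR-206-3p was at a log2 fold change of 0.20 (0.01 without control 1). Of 8 tested muscle entries 7 were positive, with a median of 0.93 that ran from 0.19 without MnCl2 2 to 1.27 without MnCl2 3.

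**Figure D3:**
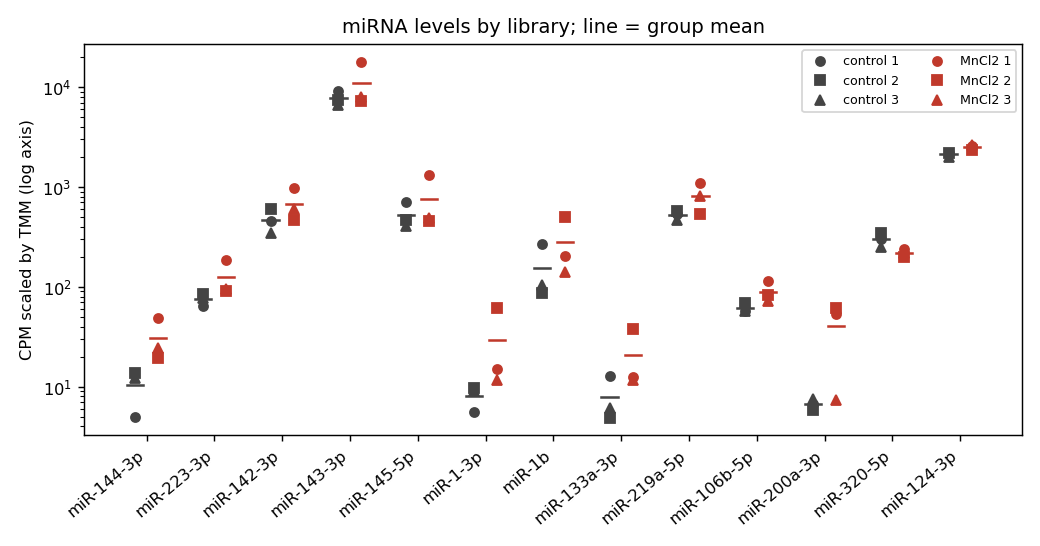
Levels of 13 miRNAs in CPM scaled by TMM (log axis) in 3 control (grey) and 3 MnCl2 libraries (red), with the library number given by the symbol and the group mean by a line. MnCl2 1 is highest for miR-143-3p at 17934 CPM, and MnCl2 2 is highest for miR-1-3p at 61.6 CPM.

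Epithelial miRNAs gave the largest single fold change among the miRNAs named here. miR-200a-3p, of the family that holds cells in an epithelial state, was at 6.68, 5.87 and 7.61 CPM in control and 53.9, 61.6 and 7.35 in MnCl2. MnCl2 1 and MnCl2 2 stood apart, and MnCl2 3 lay inside the control range, so the groups overlapped (log2 fold change 2.60, SE 1.10, edgeR adjusted p = 0.8435). Counts of miR-200a-3p were 12, 6 and 5 in control and 39, 63 and 7 in MnCl2, so counting error is wide. Without the filter on low counts this was the 1 entry called (edgeR adjusted p = 0.0189).
miR-141-3p, which has the same seed and differs from miR-200a-3p by C17A and T22G, was at 5.56, 10.8 and 27.4 CPM against 49.8, 31.3 and 15.8 (1.22, SE 0.76; 0.79 without control 1 and 0.76 without MnCl2 1). The less closely related miR-429 was at 39.5, 37.2 and 47.2 CPM against 53.9, 59.7 and 43.0. All 7 tested epithelial entries were positive, in the miRNA-only scaling too, with a median of 0.74 that ran from 0.32 without control 1 to 1.35 without control 3. Of all miRNAs at 20 CPM or less, 185 of 215 were positive, with a median of 0.48. The epithelial list summed to 63.4, 120 and 195 CPM in control and 259, 259 and 148 in MnCl2.

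Brain cells showed smaller differences. Neuron-enriched miRNAs fit a brain sample but do not single out striatum. They summed to 81379, 71894 and 59755 CPM in control and 71629, 63384 and 78774 in MnCl2, and none was at 0 in any library. Of 13 tested neuron entries 9 were positive, with a median of 0.04 that ran from -0.16 without control 3 to 0.17 without control 1 and was -0.24 with miRNAs scaled alone (1 positive).
Among them miR-124-3p, a strongly neuron-enriched miRNA, was at 2209, 2213 and 1991 CPM in control and 2560, 2369.6 and 2658 in MnCl2. All 3 MnCl2 libraries lay above, by a log2 fold change of 0.24 (SE 0.13) that was -0.03 with miRNAs scaled alone. Its other arm, miR-124-5p, overlapped (159, 114 and 163 against 192, 132 and 146 CPM), as did miR-128-3p (22415, 18540 and 17197 against 17445, 16927 and 19835 CPM).
miR-132-3p, induced by neuronal activity through CREB, was at 792, 659 and 563 CPM in control and 556, 657 and 739 in MnCl2, and 5 of 7 activity-regulated entries were positive with a median of 0.03 that ran from -0.08 without MnCl2 3 to 0.07 without MnCl2 2 and was -0.25 with miRNAs scaled alone (1 positive). For miR-7a-5p, which represses alpha-synuclein, the values of 29147, 23003 and 22378 against 22192, 17995 and 29032 CPM overlapped too. miR-153-3p, with the same target, was at 3948, 4727 and 3052 against 6058, 4029 and 4610.5 CPM.

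Oligodendrocyte miRNAs differed from member to member. miR-219a-5p, which promotes myelin formation, was at 540.3, 577 and 466 CPM in control and 1095, 533 and 808 in MnCl2, with MnCl2 2 inside the control range. Its log2 fold change was 0.62 (SE 0.23, edgeR adjusted p = 0.8435); it was 0.34 without MnCl2 1 and 0.32 with miRNAs scaled alone. miR-338-5p was at 55.6, 38.2 and 47.2 CPM against 58.1, 59.7 and 68.2, without overlap (0.39, SE 0.24), and its abundant arm miR-338-3p overlapped (4125, 3081 and 2528 against 4136, 3004 and 4238 CPM). Of 6 entries of the list 4 were positive, with a median of 0.15 that has no settled sign: it ran from -0.08 without control 3 to 0.49 without control 1 and was -0.06 with miRNAs scaled alone (2 positive).

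**Figure D4:**
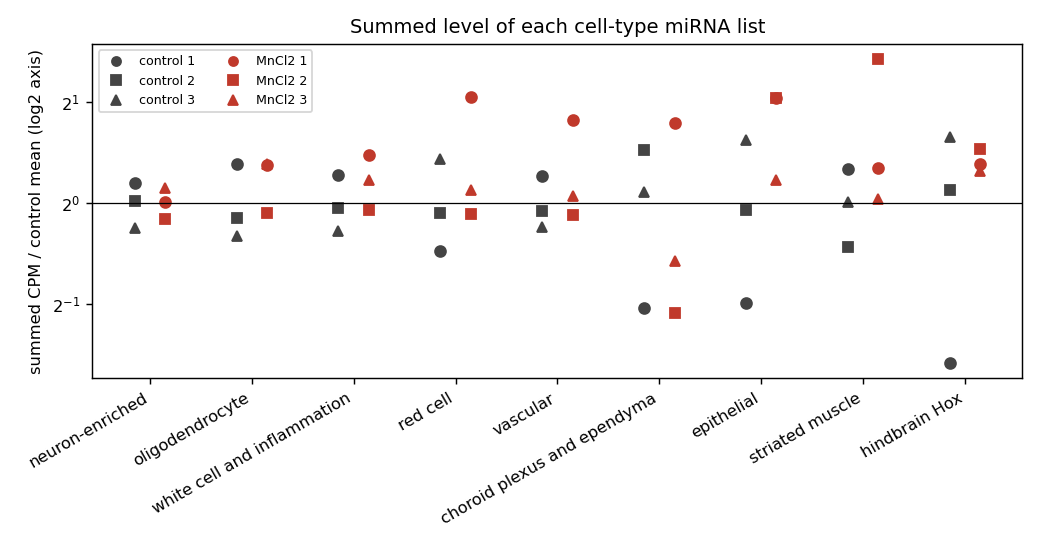
Summed CPM of 9 cell-type lists of miRNAs in each library, divided by the mean of the 3 control libraries (log2 axis), with control in grey, MnCl2 in red and the library number given by the symbol. MnCl2 1 is highest for the red-cell, white-cell, vascular and choroid lists, and MnCl2 2 for the muscle list at 817 CPM.

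The miRNAs of the miR-17/92 and miR-106b/25 clusters, which are high in dividing cells, had 14 of 19 tested entries positive and a median of 0.23, equal to that of all miRNAs. The median of these entries ran from 0.14 without MnCl2 1 to 0.40 without control 2 and was -0.08 with miRNAs scaled alone (7 positive). miR-106b-5p was at 57.9, 69.5 and 57.8 CPM in control and 113, 83.1 and 72.4 in MnCl2, without overlap (log2 fold change 0.53, SE 0.23, edgeR adjusted p = 0.8435). Without MnCl2 1 the value was 0.33, and with miRNAs scaled alone 0.25. The miRNAs with its seed AAAGTGC differed among themselves. miR-17-5p was at 499, 559.6 and 437 CPM against 899.96, 457 and 622 (0.40; 0.11 without MnCl2 1 and 0.10 with miRNAs scaled alone). miR-93-5p, made from the same transcript as miR-106b, was at 1689, 1087 and 1136 against 1313, 1059 and 1466 (-0.03; 0.21 without control 1). For 2 further members, miR-20a-5p and miR-20b-5p, the fold changes were 0.19 and 0.44, or 0.29 and -0.01 without control 1.
Across all hairpins with both arms tested, 119 of 189 had both arms positive, 10 both negative and 60 of opposite sign. As 476 of 615 miRNAs were positive, these counts alone do not show that the arms of a hairpin go together.

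Other miRNAs with low p-values or no overlap have less well known roles. miR-6331 was at 47.9, 48.9 and 71.5 CPM in control and 98.2, 75.3 and 104 in MnCl2 (0.73, SE 0.26, edgeR adjusted p = 0.8435), and kept 0.46 with miRNAs scaled alone. Its highest control library and its lowest MnCl2 library lay close together. miR-582-5p was at 80.1, 109.6 and 86.7 against 153, 112 and 119.7 CPM (0.48, SE 0.20), and its other arm miR-582-3p at 86.3, 68.5 and 65.4 against 109, 79.2 and 129 (0.52, SE 0.25). For miR-496-3p, of the imprinted Dlk1-Dio3 cluster, the values were 122, 87.1 and 76.1 against 151, 155 and 119 CPM, which overlap (0.55, SE 0.22). miR-222-3p was at 149, 145 and 148 against 152, 201 and 186 CPM, above control in all 3, while miR-221-3p, of the same seed and cluster, overlapped (851, 540.03 and 549 against 594, 651 and 669 CPM).

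At the unadjusted level the 2 lower miRNAs were miR-320-5p and miR-875, and with miRNAs scaled alone 9 were lower at that level. miR-320-5p, from a precursor that is made without Drosha, was at 303, 343 and 253 CPM in control and 239, 199.5 and 218 in MnCl2. The groups did not overlap, and the log2 fold change was -0.46 (SE 0.18, edgeR adjusted p = 0.8435), or -0.73 with miRNAs scaled alone. miR-150-5p, abundant in lymphocytes, was at 239, 160.4 and 175 CPM against 139.6, 145 and 148 (-0.42, SE 0.20), or -0.21 without control 1. MnCl2 1 was thus the lowest library for miR-150-5p and the highest for miR-223-3p and miR-142-3p. miR-31b was at 35.6, 30.3 and 31.9 CPM against 24.9, 20.5 and 24.1 (-0.50, SE 0.32). For miR-875 the values overlapped, at 41.2, 77.3 and 111 against 41.5, 50.9 and 31.5 CPM (-0.87, SE 0.36). In a list of miRNAs held to act on iron and metal handling genes, 8 of 9 tested members were positive with a median of 0.48, and miR-320-5p was the 1 negative member. That median was 0.19 without control 1, 0.18 without MnCl2 2, 0.30 without MnCl2 1 and 0.22 with miRNAs scaled alone (5 positive). Of the positive ones, miR-152-3p was at 270.45, 314 and 284 CPM against 698, 243 and 335 (0.55), and its value without MnCl2 1 was -0.01.

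Among miRNAs the scarce entries had the largest fold changes, and these moved with control 1. The 215 miRNAs at 20 CPM or less (mean of the 9 libraries) summed to 1074, 2477 and 3631 CPM in control and 3279, 3776 and 2832 in MnCl2. Control 1 was lowest, and control 3 lay inside the MnCl2 range. Of these miRNAs 185 were positive, with a median of 0.48 and 28 of 215 above control without overlap (over all miRNAs 48 of 615, 7.8%; over all entries 53 of 1113, 4.76%). Without control 1 the number positive was 123 and the median 0.12. The abundant miRNAs went the other way: of 74 above 1000 CPM, 44 were positive with a median of 0.02, and without control 1 all 74 were, with a median of 0.20. The hindbrain miR-196a-5p, of the Hox clusters, also moved with control 1. It was at 1.67, 36.2 and 41.1 CPM in control and 56.7, 54.8 and 44.1 in MnCl2, with a log2 fold change of 1.04 that is 0.43 without control 1.

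Transfer RNA entries were mostly lower. tRNA genes were grouped by amino acid and anticodon into 52 isotypes (the mitochondrial and undetermined ones included), and the summed level was lower in 41 and higher in 11. Sums in MnCl2 lay below control without overlap in 8 isotypes and above in 0. These 8 were Arg-ACG, Arg-TCG, Arg-TCT, Asn-GTT, Ile-TAT, Lys-CTT, Thr-CGT and mitochondrial Gln-TTG. Of 40 isotypes with 3 or more genes, every gene was negative in 14 and every gene positive in 2. The medians named here kept their sign under RLE and total-count scaling.

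Arginine tRNAs with anticodon ACG summed to 2906, 2441 and 1979 CPM in control and to 1859, 1755 and 1921 in MnCl2. All 6 genes were negative, from -0.50 to -0.28, and the median of -0.39 ran from -0.57 without control 3 to -0.28 without control 1. The gene on chromosome 15 (37051458 to 37051530, plus strand, rn6 by the entry names), whose sequence is shown above, was at 464, 341 and 354 CPM against 250.2, 276 and 312, without overlap (log2 fold change -0.47, SE 0.16, edgeR adjusted p = 0.8435; -0.31 without control 1). An isoleucine tRNA with anticodon TAT on chromosome 17 (58772894 to 58772987, minus strand) was at 344, 349 and 303 CPM against 231, 248 and 284 (-0.39, SE 0.14). For an arginine tRNA with anticodon TCT on chromosome 2 (243908087 to 243908171, minus strand), the values of 1084, 1031 and 1080.1 against 853, 806 and 911 CPM did not overlap (-0.31, SE 0.12). The 1 tRNA gene higher at the unadjusted level was a serine tRNA with anticodon GCT on chromosome 17 (58355160 to 58355241, minus strand), at 19.5, 39.1 and 91.3 CPM against 113, 113 and 90.3 (1.14, SE 0.45; 0.73 without control 1 and 1.82 without control 3), with control 3 inside the MnCl2 range.

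Glutamine tRNAs with anticodon CTG had the most genes at low p-values, 5 of 10 (over all tRNA genes 23 of 410 lower, 5.61%). Their sums of 26774, 26459 and 19602 CPM in control and 21563, 17242 and 17195 in MnCl2 overlapped, and control 3 was the lowest of the control libraries. All 10 genes were negative, from -0.48 to -0.33, and the median of -0.40 ran from -0.66 without control 3 to -0.31 without control 1. The gene on chromosome 17 (57836792 to 57836863, plus strand) was at 4047, 4061 and 3330.1 CPM against 3261, 2918 and 2866, without overlap (-0.34, SE 0.14). It was the only 1 of the 10 genes without overlap. Tryptophan tRNAs (anticodon CCA) had 7 of 8 genes negative, with sums of 11784, 9198 and 8039 CPM against 7794, 7213 and 8125. Their median of -0.34 ran from -0.53 without control 3 to -0.16 without control 1. Aspartate tRNAs (anticodon GTC) were the opposite case, with 15 of 15 genes positive. Their sums were 11212, 23409.9 and 25336 CPM in control and 24891, 28859.7 and 20745 in MnCl2. Control 1 was low, and the median of 0.32 was 0.02 without it.

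Gene copies are not independent. 221 tRNA genes fell into 59 sets of identical sequence, and copies of a set had nearly equal counts, for example 67147 to 67519 in each of 7 Gly-GCC copies over all 9 libraries. The 10 His-GTG genes hold 1 sequence between them. Over the 59 sets the fold changes of identical copies spanned a median of 0.08, and up to 0.87 in 3 scarce Cys-GCA copies of 247 to 275 counts. Glycine GCC genes split by sequence, with the 7 identical copies at 0.21 to 0.25 and another identical pair at -0.40 and -0.32.

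**Figure D5:**
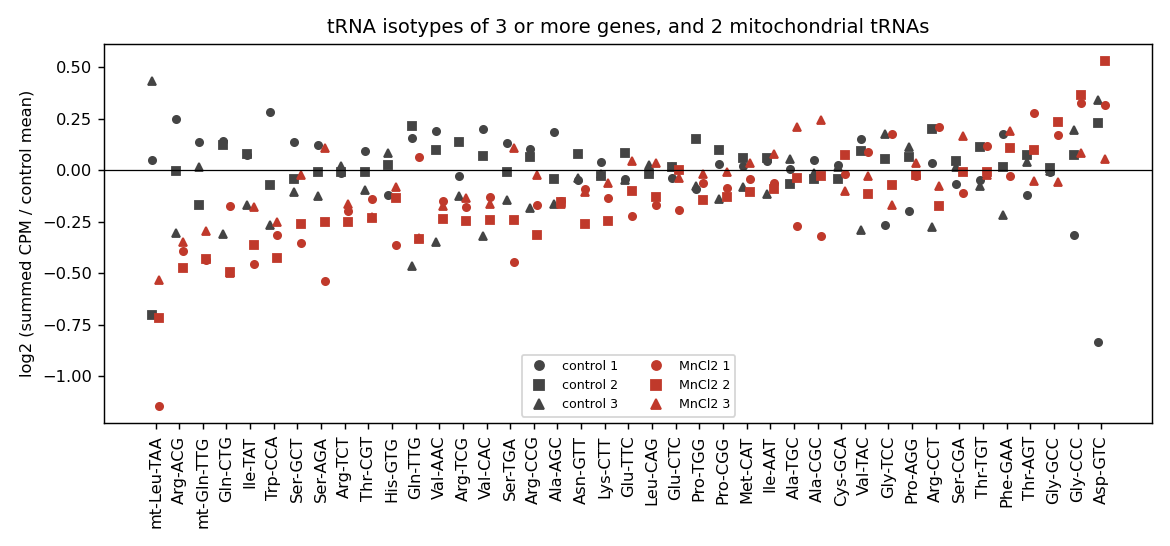
Log2 of the summed CPM of each tRNA isotype over its mean in the 3 control libraries (vertical axis), for isotypes of 3 or more genes and 2 mitochondrial tRNAs (horizontal axis), with control in grey and MnCl2 in red. Most MnCl2 points lie below 0, and aspartate GTC at the right has control 1 far below the other libraries.

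Mitochondrial tRNAs were lower as well. The glutamine tRNA (anticodon TTG, chromosome M, 3761 to 3831, minus strand) was at 16819, 13620 and 15484 CPM in control and 11321, 11371 and 12502 in MnCl2. All 3 MnCl2 libraries lay below, with a log2 fold change of -0.38 (SE 0.16, edgeR adjusted p = 0.8435). The leucine tRNA (anticodon TAA, 2665 to 2739, plus strand) was at 9536, 5673 and 12437 CPM against 4175, 5599.8 and 6378. Here control 2 lay inside the MnCl2 range, and the log2 fold change was -0.77 (SE 0.29). Fewer mitochondrial transcripts and fewer fragments per transcript cannot be told apart in these data.

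piRNA entries that match a tRNA were mostly lower. Of 88 tested, 58 share 16 or more bases in a row with a tRNA entry, and 50 of these were negative with a median of -0.30, 10 of them below control without overlap and 0 above (over all entries 55 of 1113, 4.94% below and 53 of 1113, 4.76% above). The 30 others had 14 negative, a median of 0.11, 2 below and 2 above. Of the 58, 43 begin at the first base of the tRNA. Many are nested or identical versions of the same tRNA end, so they are not independent. Over all 88 piRNAs, 10 were lower at an unadjusted edgeR p under 0.05. That number was 1 without MnCl2 1, 2 without control 1 and 21 without control 3. With shared sequences summed it was 3 of 58, but these sums include tRNAs that contain a piRNA entry. The 3 and the 10 are therefore not counts of the same kind. pir-64746, whose first 25 bases are those of a valine tRNA, was at 193, 162 and 126 CPM in control and 106, 91.0 and 118 in MnCl2, all below (-0.62, SE 0.19, edgeR adjusted p = 0.8435). The longer match pir-64745 was at 596, 529 and 467 CPM against 401, 435 and 419.99 (-0.34, SE 0.15). Outside tRNAs, pir-178901 was at 1.11, 4.89 and 1.52 CPM in control and 13.8, 11.7 and 12.6 in MnCl2, all above (2.33, SE 0.85). This entry held 61 counts over all 9 libraries, so counting error is wide.
Some piRNA sequences are listed under 2 tags, as a tRNA and as a piRNA cluster entry, with separate counts. pir-64142, the first 30 bases of glycine GCC tRNA, was at 162, 132 and 179.5 CPM against 76.0, 131 and 111 under the cluster tag (-0.56) and at 2396, 1679.8 and 2074 against 1969, 2078 and 2009 under the tRNA tag (-0.02; 0.11 without control 1). The 2 sequences have 0 differences, so the value depends on the tag.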

How the data were processed

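Small RNA of rat striatum was sequenced. TRIzol RNA was size-selected on a gel at 15 to 45 nucleotides and ligated with a QIAseq kit whose adapters hold molecular identifiers, per the labels' protocols. Trimmomatic trimmed the reads and rn6 was the build, per the submitters' processing notes. The aligner, treatment of reads that match several entries, strand and use of identifiers were not given in the sources used here, so counts may include PCR copies and antisense or identical entries may share reads.

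The authors deposited raw counts per entry, without normalization, in 1 file per library. Groups came from the sample titles. The main test was the two-sided quasi-likelihood test of edgeR 4.0.16 (R 4.3.3) with TMM, filterByExpr and robust weights, all 9 libraries in 1 fit, with Benjamini-Hochberg adjustment over 1113 entries. The biological coefficient of variation was 0.279, and untested entries held 0.0854% of counts. The SE is the fold change divided by the root of the F statistic. Totals and class shares were compared by exact permutation over 20 arrangements. Scripts were tested on simulated data. Members and lists were chosen with earlier results of these data known.

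Entries were taken from a written rule, but the text does not describe all that it selects. The rule takes the 10 lowest p-values in each direction, then up to 6 miRNAs, 4 tRNA genes and 4 piRNAs per direction. It adds the 5 most abundant of each class, and list members at an unadjusted p under 0.05 or else the 2 most abundant. At 50 CPM or more it adds the 5 largest fold changes without overlap in each direction. Partners by hairpin, seed or sequence complete it. Selected but not described are, for example, miR-489-5p, miR-295-3p, miR-187-3p and miR-29b-3p. Alternatives were DESeq2 1.42.0, other scalings and filters, the 2 groups alone, leaving out each library, the replicate block, total count as covariate, no robust weights and shared sequences summed. That last run summed entries that contain one another, and antisense miRNAs, under 1 of their names, a piRNA name coming before a tRNA name. A filter of 50 CPM in 3 libraries and the block within the 2 groups were added after seeing the data. Same-numbered libraries correlated at -0.02, 0.06 and -0.37 in their deviations, and unlike-numbered ones at -0.39 to 0.44. The labels state no pairing, and these few values cannot decide it. Other steps used Python 3.11.15, pandas 2.3.3, scipy 1.17.1 and matplotlib 3.10.9.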

Additional observations from a re-analysis of the deposited data

How the results depend on the processing

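The comparison has 3 libraries a group, 583045 to 2012769 counts each, and control 1 has the highest total and the fewest entries with a count. Entries called numbered 0 in each alternative run except without the low-count filter, where 1 was called, miR-200a-3p (log2 fold change 2.48, edgeR adjusted p = 0.0189). The filter of 10 CPM in 3 libraries left the same 1113 entries. With the replicate block 0 were called, with 11 higher and 31 lower at the unadjusted level of 0.05, and in the 2 groups alone 6 and 9, or 10 and 24 without it. Those numbers moved with the total count as covariate (78 and 36), without the filter (47 and 36), with shared sequences summed (8 and 43) and from 10 to 63 higher and 11 to 94 lower when 1 library was left out, the widest being without control 3. Of the 51 entries at that level 50 kept their sign in each setting that tested them, the exception being pir-72949 (0.193 with shared sequences summed). That value belongs to a sum that includes Asp-GTC tRNA entries containing this sequence, not to the piRNA entry alone. The cause of these shifts was not tested.

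The difference in mean total count, -311069, ranged from -619896 to 94966 when 1 library was left out, turning positive without control 1. Of 59 entries whose values are given, 23 changed sign in at least 1 setting, the largest of them at 0.548 in size as reported. With miRNAs scaled alone these were miR-124-3p (-0.0318), miR-124-5p (-0.176), miR-126a-3p (-0.164), miR-146b-5p (-0.237), miR-206-3p (-0.048), miR-20a-5p (-0.0937), miR-21-5p (-0.0417), miR-338-3p (-0.0623), miR-34c-5p (-0.243) and miR-451-5p (-0.166), and the miRNA median turned too (-0.0505). With shared sequences summed they were miR-124-5p (-0.0415), miR-126a-3p (-0.0309), miR-146b-5p (-0.109), miR-34c-5p (-0.0722) and miR-451-5p (-0.0232). With the total count as covariate they were miR-132-3p (0.0251), miR-221-3p (0.106) and miR-93-5p (0.0562), and with the filter of 50 CPM miR-132-3p (0.0054), miR-221-3p (0.0341), miR-93-5p (0.0214) and pir-64142 under the tRNA tag (0.0259). miR-146b-5p also turned with DESeq2 (-0.018), RLE scaling (-0.0178) and no filter (-0.0638). miR-221-3p also turned with total-count scaling (0.0034), the replicate block (0.0109) and the block in the 2 groups alone (0.0186). When 1 library was left out 20 of them turned, with these ranges: miR-124-5p -0.101 to 0.215, miR-126a-3p -0.0419 to 0.300, miR-128-3p -0.246 to 0.0187, miR-132-3p -0.221 to 0.0925, miR-143-3p -0.0349 to 0.740, miR-144-5p -0.0834 to 0.767, miR-145-5p -0.161 to 0.799, miR-146a-5p -0.324 to 0.0992, miR-146b-5p -0.175 to 0.231, miR-152-3p -0.009 to 0.831, miR-204-5p -1.23 to 0.121, miR-20a-5p -0.0476 to 0.336, miR-20b-5p -0.0072 to 0.678, miR-21-5p -0.0063 to 0.500, miR-221-3p -0.212 to 0.232, miR-34c-5p -0.551 to 0.417, miR-451-5p -0.369 to 0.404, miR-7a-5p -0.309 to 0.0426, miR-93-5p -0.217 to 0.206 and pir-64142 under the tRNA tag -0.211 to 0.109. The tRNA median of -0.0783 was -0.126 with DESeq2, -0.123 with RLE scaling and -0.171 to -0.0769 when 1 library was left out. The piRNA median was 0.0 without the filter.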
